A study of Mus musculus with 6 samples.

Results

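The genes described are those of the Wnt signalling system at and near the cell surface, together with a few of its nuclear readouts. They were chosen by symbol: all Wnt, Fzd, Sfrp and numbered Dkk genes, Frzb, Lrp5, Lrp6, Ror1, Ror2, Ryk, Axin2, Lef1, Tcf7 and Tcf7l2, with at least 60 counts summed over all libraries. Of 56691 rows in the count table, 47 matched by symbol and 34 reached 60 counts. These 34 are 10 ligands, 10 Frizzled receptors, 5 co-receptors, 5 secreted modulators and 4 nuclear factors or targets. The nearest values on either side of that minimum were 75 counts for Fzd9 and 80 for Wnt16 inside it, and 41 for Sfrp4 and 25 for Wnt10b outside it. RNA was sequenced from primary cardiomyocytes of neonatal mouse hearts that carried an adenovirus with the cTNT (cardiac troponin T) promoter. In 3 libraries, titled Ad-HMGB2, the virus was Ad5-cTNT-HMGB2, and the genotype label reads HMGB2 overexpression. In the other 3, titled Ad-vector, it was the Ad5-cTNT vector, with the genotype label Control. Both groups therefore received virus, and no library of cells without virus was analysed. The cTNT promoter is active in cardiomyocytes, so the insert is driven in that cell type and not by design in other cells of the cultures. The sources used here do not give mouse strain, age in days, virus dose or time of collection.

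Wnt ligands are lipid-modified secreted proteins that bind Frizzled receptors together with a co-receptor. With Lrp5 or Lrp6 as co-receptor, the signal stops the breakdown of beta-catenin, which then acts in the nucleus with DNA-binding factors of the TCF/LEF family. With Ror1, Ror2 or Ryk, the signal goes through cell polarity and calcium branches. In the heart, Wnt signals are known for their stage-dependent part in making cardiac precursors, for outflow tract and valve formation, and for the response of fibroblasts and other cells to injury.

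The libraries held between 12498215 and 16618365 counts, and 15429 genes passed the filter on low counts. Hmgb2, the check of the labels, was at 46.8, 44.8 and 36.3 CPM (counts scaled to the TMM-adjusted library size) in vector 1, 2 and 3 and at 175, 196 and 182 CPM in HMGB2 1, 2 and 3. Vector 1 and HMGB2 3 stood apart from the other libraries on the second principal component of the 500 most variable genes (6.82 and 5.30, against -3.66 to -2.41 in the rest), which held 5.77% of their variance. Of 12 cardiomyocyte markers, 9 rose with HMGB2 and none fell, and their summed level was 19490 to 19930 CPM with the vector and 29950 to 31360 CPM with HMGB2. Other heart cells were present as well. Summed over 12 markers each, fibroblasts gave 5058 to 5126 CPM with the vector and 4529 to 4605 CPM with HMGB2 (1 rose, 2 fell, 8 did not pass), and endothelial cells 3627 to 3755 and 3240 to 3253 CPM (0 rose, 3 fell, 9 did not pass). The fibroblast marker that rose was Fbln1 (log2 fold change 0.65, edgeR adjusted p = 0.00432). Epicardial and mesothelial markers went from 265 to 294 CPM with the vector to 243 to 254 CPM (0 of 12 rose, 2 fell, 7 had a positive log2 fold change, median 0.02), and macrophage markers from 108 to 142 CPM to 79.3 to 92.6 CPM (0 of 11 tested rose, 5 fell). Smooth muscle and pericyte markers were at 1907 to 1961 and 1912 to 1939 CPM (1 of 12 rose, 2 fell), and 8 endocardial markers at 1147 to 1257 and 921 to 1036 CPM (1 of 7 tested rose, 3 fell). In the epicardial list, Krt19 alone went from a mean of 61.4 to 23.4 CPM, a larger difference than that of the summed level. Fbln1 and Krt19 are named after their values were seen. With any 1 library left out, Fbln1 and Krt19 kept their calls, 8 to 10 cardiomyocyte markers rose and 2 epicardial markers fell. Without vector 1, 2 epicardial markers also rose. Calls in the other lists depended more on single libraries. No endothelial marker fell without vector 2, vector 3, HMGB2 1 or HMGB2 2, and 1 fell without vector 1. Of the macrophage markers 2 fell without vector 2, and of the endocardial markers 1 fell without vector 3, HMGB2 1 or HMGB2 2 and 2 fell without vector 1 or vector 2. Of the fibroblast markers 1 fell without HMGB2 1 or HMGB2 2 and 4 without vector 1, and of the smooth muscle markers 4 fell without vector 1. The share called was 75% of tested cardiomyocyte markers, 57.1% of endocardial and 45.5% of macrophage ones, beside 25.2% of all genes tested. For fibroblasts (27.3%), endothelial cells (25%), smooth muscle and pericytes (25%) and the epicardial list (16.7%) it was near or below that share. No marker of any list was at 0 in all libraries. Most Wnt genes can be made by several of these cell types, and in bulk RNA fewer cells of a type and less RNA per cell cannot be told apart. The part of these marker differences in the results that follow was not tested.

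Per length of transcript, the most abundant receptors lay far above every ligand. On the deposited FPKM scale, which corrects for gene length, Fzd6 had the highest level of all members, at 42.6 ± 2.42 FPKM (SD, n = 3) with the vector. Ryk, Fzd4, Sfrp1, Dkk3 and Lrp5 followed, with vector levels between 11.8 and 27.2 FPKM. The ligands lay lower. With the vector, Wnt7a was the highest of them at 4.12 FPKM, then Wnt2 at 2.85 FPKM and Wnt5a at 1.86 FPKM. The summed FPKM of all ligand rows was 12.3 to 14.8 with the vector and 10.6 to 10.97 with HMGB2, while the Frizzled receptors summed to 88.9 to 95.6 and 92.6 to 93.4. The ligand sums of the groups did not overlap and the Frizzled sums did. Co-receptor sums, 58.9 to 61.55 with the vector and 51.4 to 55.2 with HMGB2, did not overlap either. Nor did those of the secreted modulators, at 37.5 to 39.1 and 56.3 to 58.5.

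**Figure D1:**
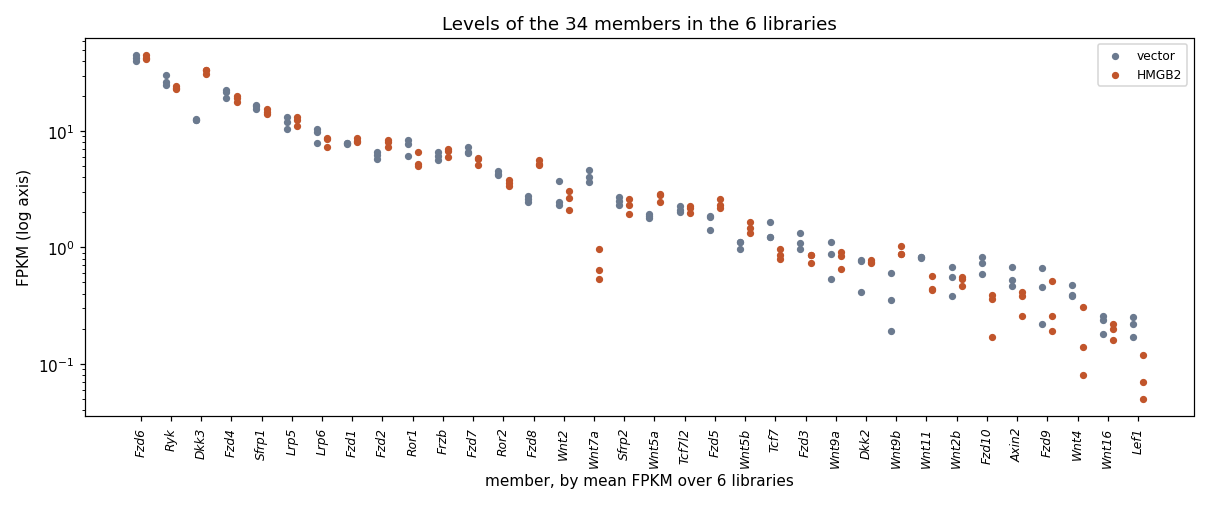
FPKM of the 34 members in each of the 6 libraries (points, log axis), ordered by their mean over all libraries and coloured by group. Fzd6 is highest and Lef1 lowest; the groups are visibly apart for Dkk3, Fzd8 and Wnt7a.

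Among the 34 members, 6 rose and 7 fell with HMGB2 (edgeR quasi-likelihood test, adjusted p under 0.05), and 21 did not pass the threshold. That is 38.2% of the members, beside 25.2% of all genes tested, where 14.4% rose and 10.8% fell. By role, the share called was 40% of ligands, 60% of Frizzled receptors, 0% of co-receptors, 20% of secreted modulators and 50% of nuclear members. Each role holds only 4 to 10 genes. The 3 libraries of one group lay entirely above those of the other for 19 members (8 higher and 11 lower with HMGB2), or 55.9%, beside 40.5% of all genes tested. The median log2 fold change was -0.16 over the members and -0.0022 over all genes. Of the 13 calls, 4 were kept under all 15 alternatives run: the fall of Wnt7a and the rises of Dkk3, Fzd8 and Wnt5a. The other 9 calls depended on single libraries, which are named with each gene, and 6 of these 9 were also lost with DESeq2 or limma on all libraries. With DESeq2, Fzd2 (adjusted p = 0.0541) and Tcf7 (0.056) lost their calls. With limma on log2(FPKM + 1) and log2(FPKM + 0.1), so did Fzd3 (0.104 and 0.114), Fzd5 (0.0502 and 0.0535) and Fzd7 (0.0521 and 0.0524), and Lef1 did on the first of these scales (0.0595). With a replicate block in edgeR, also on all libraries, these 6 were lost again. So were Fzd10 (adjusted p = 0.0642) and Wnt11 (0.0665), while Wnt9b kept its call (0.0457). With 1 library left out, the number of members that fell was 10 without vector 1, 1 without vector 2 or 3, and 4, 2 and 3 without HMGB2 1, 2 and 3. The number that rose was 3 without HMGB2 1 and 4 or 5 without any other library. Without vector 1 and HMGB2 3 together, 6 members rose and 14 fell. Calls over all genes grew as well. They were 2224 rises and 1662 falls with all libraries and 2526 and 1960 without vector 1. Without both vector 1 and HMGB2 3, they were 3265 and 2986. Members were lower in these 2 libraries than in the others of their groups, by a median of -0.04 in vector 1 and -0.08 in HMGB2 3 on the log2 scale. The medians over all genes tested were 0.01 and 0.0049. For members, the medians were 0.03 in vector 2, 0.08 in vector 3, 0.09 in HMGB2 1 and 0.04 in HMGB2 2. Vector 3 and HMGB2 1 thus deviated at least as far, in the other direction. The pair of vector 1 and HMGB2 3 stood apart in these same data, and the fit without it rests on 2 libraries per group. Leaving out libraries that stand apart narrows the spread within groups. The adjusted p values of that fit, here and below, are therefore descriptions only. Nothing in the labels ties the replicates to separate animals or cultures, and the p-values then rest on the spread among these libraries alone, which may be technical.

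**Figure D2:**
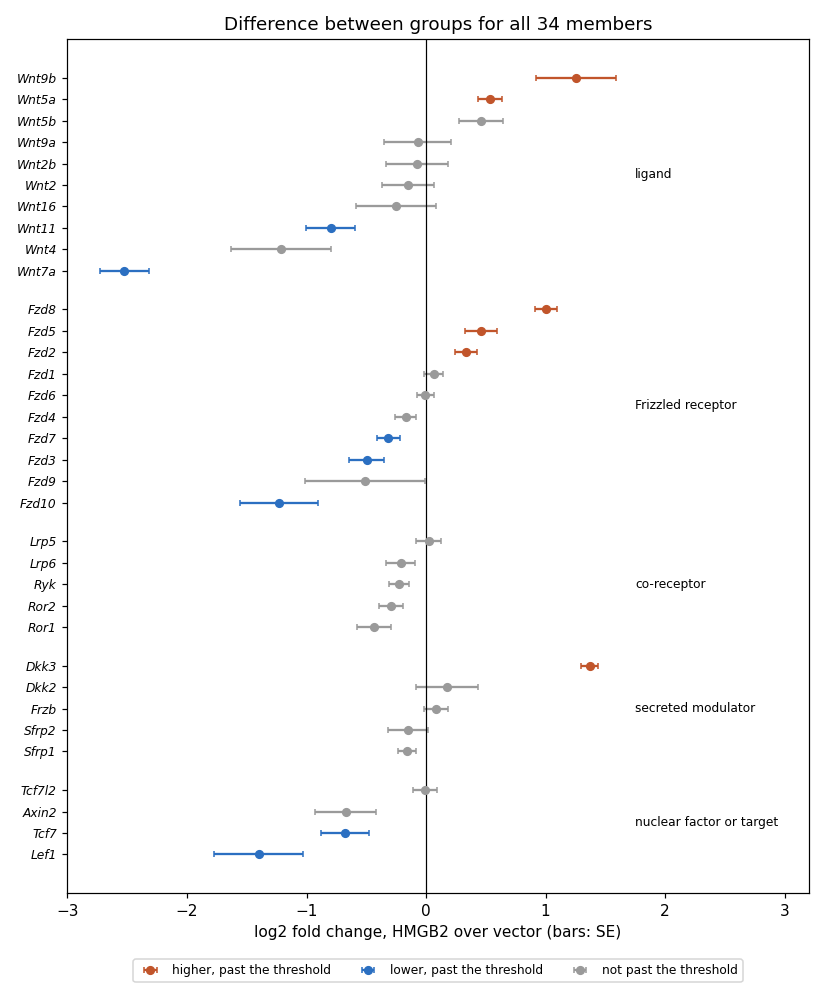
Log2 fold change of HMGB2 over vector for the 34 members by role, with the standard error as bars; red and blue points passed the edgeR threshold. Wnt7a lies lowest at -2.53 and Dkk3 highest at 1.37, and the 5 co-receptors all miss the threshold.

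Of the 10 ligands, 2 rose and 2 fell. Wnt7a, a ligand known for its part in limb patterning and the nervous system, had the largest difference of any member. It was at 14.8, 11.8 and 12.95 CPM in vector 1, 2 and 3 and at 3.07, 1.72 and 2.0 CPM in HMGB2 1, 2 and 3. Every HMGB2 library lay below every vector library by a wide margin. Wnt7a (ENSMUSG00000030093, GRCm38 chromosome 6, 91363981 to 91411363, minus strand) fell by 2.53 in log2 units (SE 0.21, edgeR adjusted p = 3.06e-05), from 13.2 ± 1.55 to 2.26 ± 0.709 CPM (SD, n = 3 each). Its log2 fold change lay between -2.81 and -1.58 over the alternatives, the smallest of them on the log2(FPKM + 1) scale, which understates the change of low genes.

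Wnt5a, the best known ligand of Ror2 and the polarity branch, moved the other way. Its values were 13.95, 14.97 and 15.2 CPM with the vector and 22.1, 22.7 and 19.2 CPM with HMGB2, so the groups did not overlap. Wnt5a (ENSMUSG00000021994, GRCm38 chromosome 14, 28504750 to 28527448) rose 1.45-fold (log2 0.53, SE 0.10, edgeR adjusted p = 0.00513), with a highest adjusted p of 0.0289 when 1 library was left out. Its close relative Wnt5b was at 2.57, 2.99 and 3.01 CPM against 3.91, 3.52 and 4.36 CPM, also without overlap, but its log2 fold change of 0.46 (SE 0.19) did not pass (adjusted p = 0.104).

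Wnt9b, a ligand needed for kidney tubule formation, and Wnt11, a polarity-branch ligand needed for the outflow tract, were low and called less firmly. Wnt9b was at 1.604, 2.78 and 0.859 CPM with the vector and 4.63, 3.93 and 3.94 CPM with HMGB2, with the widest spread in the vector libraries. It rose 2.38-fold (log2 1.25, SE 0.33, edgeR adjusted p = 0.0226), a call lost without vector 3 (adjusted p = 0.0533), HMGB2 1 (0.0838) or HMGB2 2 (0.0571). Wnt11 was at 3.45, 3.43 and 3.36 CPM against 1.80, 2.34 and 1.76 CPM. It fell by 0.80 in log2 units (SE 0.21, edgeR adjusted p = 0.0209), and the call was lost without vector 2 (0.0622), vector 3 (0.0549), HMGB2 1 (0.0843) or HMGB2 3 (0.062). Wnt4 was at 2.01, 1.61 and 1.65 CPM against 0.601, 0.345 and 1.27 CPM, without overlap but with HMGB2 3 nearer to the vector libraries. Its log2 fold change of -1.21 (SE 0.42, adjusted p = 0.0626) passed without HMGB2 3, at -1.84 (adjusted p = 0.012), and with no filter on low counts (0.0204). The other ligands, Wnt2, Wnt2b, Wnt9a and Wnt16, overlapped between groups, with log2 fold changes between -0.25 and -0.07 and standard errors of 0.22 to 0.33.

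As a share of the summed FPKM of all ligand rows, Wnt7a made up 30.7 ± 0.951% with the vector and 6.66 ± 2.11% with HMGB2. The shares of Wnt5a (13.97 ± 1.71 to 25.5 ± 2.50%), Wnt5b (8.01 ± 1.34 to 13.8 ± 1.35%) and Wnt9b (2.90 ± 1.78 to 8.61 ± 0.876%) were larger with HMGB2, with no overlap between groups. A share moves when any other ligand moves, so these values restate the differences above on one scale. The leading ligand by FPKM was Wnt7a in all 3 vector libraries. With HMGB2 it was Wnt5a in HMGB2 1 and 2 (26.4 and 27.3%) and Wnt2 in HMGB2 3 (27.6%).

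**Figure D3:**
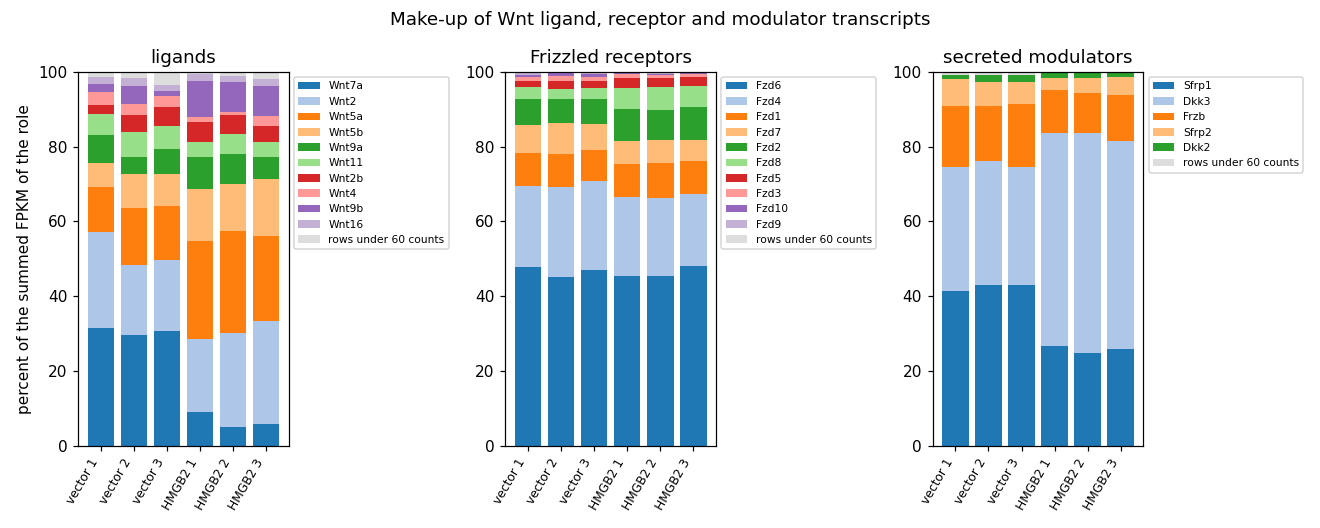
Percent of the summed FPKM of each role taken by each member, 1 bar per library, for ligands, Frizzled receptors and secreted modulators. The Wnt7a segment shrinks from about 30.7% to 6.66% of the ligands, and Dkk3 grows from 32.7% to 57.2% of the modulators.

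The sequences upstream of 4 called genes are shown: Wnt7a as the largest fall, Wnt9b as a ligand that rose, and Wnt11 and Fzd7 as genes that fell and hold a core motif of the TCF/LEF factors. RefSeq windows (GRCm38.p6) of 300 bases, from 250 before to 50 after a start site, were at hand for 25 of the 34 members, in 33 windows. The motif was searched on both strands as CTTTG followed by 2 bases that are each A or T. A match stood in 5 of the 33 windows (15.2%) and in 16.9% of 32841 windows of all genes. Only the 250 bases before the start site are printed, 5′ to 3′ along the gene, with a match in capitals. Fzd7 (chr1:59481897-59482146, plus strand) holds 1 match that begins at -130 from the start site, and Wnt11 (chr7:98834862-98835111, plus strand) 1 that begins at -51. The windows of Wnt7a (chr6:91411354-91411603, minus strand) and Wnt9b (chr11:103749822-103750071, minus strand) hold none. A second Wnt11 window, at another start site, holds none either. Of the printed Wnt7a bases, 101 lie in exons annotated by GENCODE M21, counted over any gene and either strand. The whole 300-base Wnt7a window has a GC content of 76.0% and 42 CpG pairs, beside a median GC content of 67.3% in the member windows and 52.7% in all windows. Several other members, such as Wnt4 at 84.3% and Wnt9a at 83.3%, have windows of higher GC content.
Wnt7a: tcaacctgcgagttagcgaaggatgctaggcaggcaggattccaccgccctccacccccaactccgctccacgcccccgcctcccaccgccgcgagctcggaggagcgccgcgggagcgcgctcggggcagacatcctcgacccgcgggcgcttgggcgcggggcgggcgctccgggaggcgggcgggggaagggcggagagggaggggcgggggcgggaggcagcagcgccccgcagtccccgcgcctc
Wnt9b: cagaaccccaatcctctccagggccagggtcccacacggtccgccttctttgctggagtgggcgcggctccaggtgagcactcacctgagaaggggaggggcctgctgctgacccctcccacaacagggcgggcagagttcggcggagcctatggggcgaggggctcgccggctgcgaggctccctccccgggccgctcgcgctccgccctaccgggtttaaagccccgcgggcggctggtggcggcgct
Wnt11: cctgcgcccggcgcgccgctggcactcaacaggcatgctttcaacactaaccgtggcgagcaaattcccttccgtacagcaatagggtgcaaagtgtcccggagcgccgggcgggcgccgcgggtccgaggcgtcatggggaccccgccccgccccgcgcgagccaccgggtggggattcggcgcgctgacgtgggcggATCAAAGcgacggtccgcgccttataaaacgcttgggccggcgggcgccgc
Fzd7: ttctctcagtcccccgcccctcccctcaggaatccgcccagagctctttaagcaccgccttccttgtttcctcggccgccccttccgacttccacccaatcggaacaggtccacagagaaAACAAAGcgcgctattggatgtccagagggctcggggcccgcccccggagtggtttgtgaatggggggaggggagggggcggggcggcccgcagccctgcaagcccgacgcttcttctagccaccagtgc
These letters describe the windows only: a match is not a bound site, and binding was not measured. The other member windows with a match are 1 of 4 windows of Lef1, 1 of 3 of Wnt5b and 1 of 2 of Tcf7l2.

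Frizzled receptors, the membrane proteins that bind Wnts, had changes in both directions: 3 of 10 rose, 3 fell and 4 did not pass. Fzd8 had the largest rise. Its values were 16.6, 14.9 and 15.7 CPM with the vector and 30.7, 33.7 and 30.6 CPM with HMGB2. The lowest HMGB2 library was well above the highest vector library. Fzd8 (ENSMUSG00000036904, GRCm38 chromosome 18, 9212163 to 9218136) rose 2.01-fold (log2 1.01, SE 0.09, edgeR adjusted p = 6.58e-05), and its highest adjusted p with 1 library left out was 0.00101. Fzd5, of the same Frizzled subfamily, was at 9.86, 12.7 and 12.9 CPM against 18.1, 15.9 and 14.9 CPM. It rose by 0.46 (SE 0.13, edgeR adjusted p = 0.0323), but not without vector 1 (0.0551), vector 2 (0.0629), HMGB2 1 (0.13) or HMGB2 2 (0.0801). Fzd2 was at 23.1, 21.4 and 24.3 CPM against 29.4, 27.0 and 30.1 CPM. It rose by 0.33 (SE 0.09, edgeR adjusted p = 0.0273), but not without vector 2 (0.108), HMGB2 1 (0.0925) or HMGB2 3 (0.0693).

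The 3 Frizzled genes that fell were Fzd7, Fzd3 and Fzd10. Fzd7, a receptor of both branches in early embryos, was at 29.7, 33.5 and 30.4 CPM against 26.4, 25.9 and 23.0 CPM. It fell by 0.31 in log2 units (SE 0.09, edgeR adjusted p = 0.0375), and only leaving out vector 1 kept the call. The adjusted p was 0.138 without vector 2, 0.0761 without vector 3, and 0.08, 0.0882 and 0.109 without HMGB2 1, 2 and 3. Fzd3, a receptor of axon guidance, was at 12.5, 17.5 and 14.2 CPM against 11.1, 11.03 and 9.21 CPM, with vector 1 nearest to the HMGB2 libraries. It fell by 0.50 (SE 0.15, edgeR adjusted p = 0.0343), and again only leaving out vector 1 kept the call (0.131 without vector 2, 0.0693 without vector 3, and 0.0792, 0.0752 and 0.0972 without HMGB2 1, 2 and 3). Fzd10 was at 1.92, 2.41 and 2.72 CPM against 1.26, 0.552 and 1.152 CPM. It fell by 1.23 (SE 0.33, edgeR adjusted p = 0.0238), but not without vector 2 (0.0754), vector 3 (0.0855) or HMGB2 2 (0.071).

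The 2 most abundant Frizzled genes did not pass. Fzd6, which makes up 46.7 ± 1.46% of the summed Frizzled FPKM with the vector and 46.3 ± 1.69% with HMGB2, was at 206, 197 and 219 CPM against 204, 202 and 213 CPM. Its groups overlapped, with a log2 fold change of -0.01 (SE 0.07). Fzd4, the receptor of Norrin in vessels as well as of Wnts, was at 129, 147 and 153 CPM against 134, 130 and 118 CPM, and these overlapped (log2 fold change -0.17, SE 0.09, adjusted p = 0.19). It passed only without vector 1 (-0.24, adjusted p = 0.0329) or without vector 1 and HMGB2 3 together (-0.19, 0.00184). Fzd1 was at 33.3, 33.1 and 33.7 CPM against 33.8, 36.9 and 34 CPM, just without overlap (0.06, SE 0.08, adjusted p = 0.604), and Fzd9 overlapped (-0.51, SE 0.50).

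**Figure D4:**
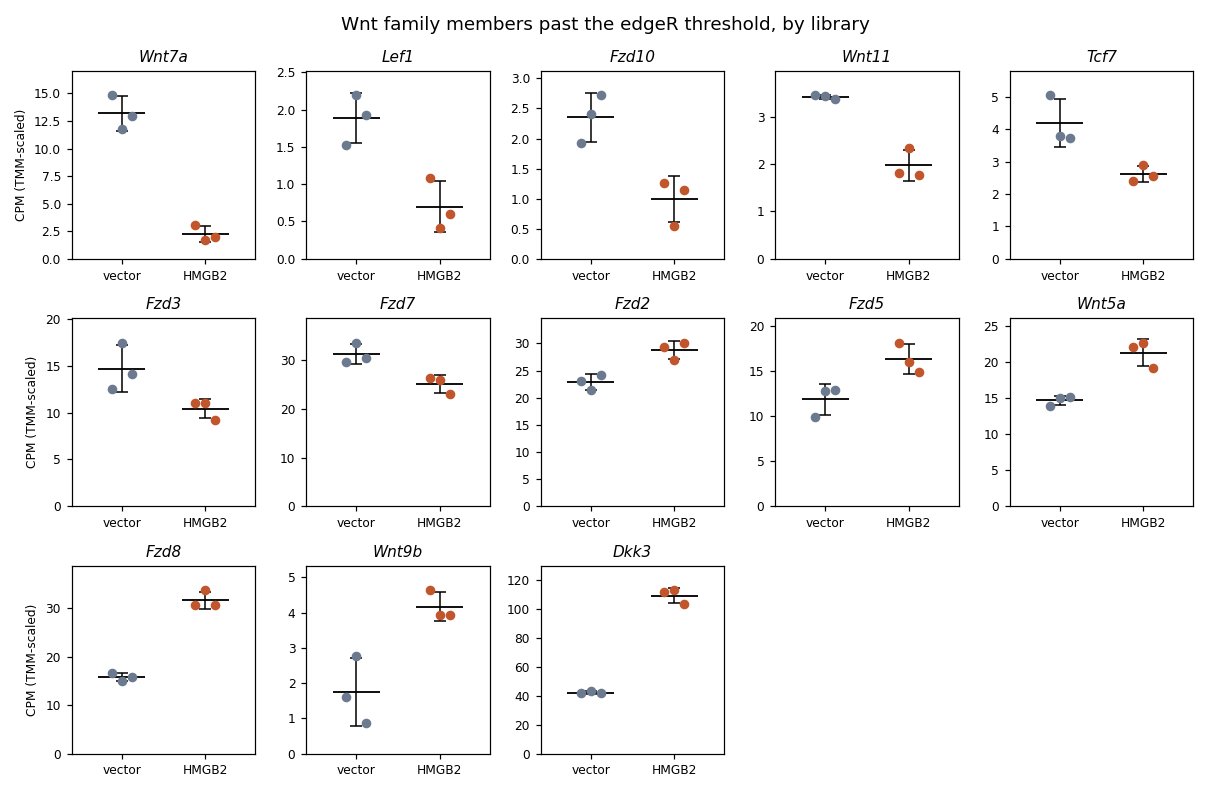
TMM-scaled CPM of the 13 members past the threshold in each library (points), with the mean and SD of 3 libraries (lines), each axis starting at 0. The groups do not overlap in any panel; the gap is wide for Wnt7a, Fzd8 and Dkk3 and narrow for Fzd3, Fzd5 and Fzd7.

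None of the 5 co-receptors passed, and 4 of the 5 had a negative log2 fold change. Lrp5 and Lrp6 are the co-receptors of the beta-catenin branch. Lrp5 was at 101, 118 and 130 CPM against 129, 120 and 105 CPM (log2 fold change 0.02, SE 0.11), and Lrp6 at 107, 137 and 144 CPM against 118, 118 and 99.0 CPM (-0.21, SE 0.12, adjusted p = 0.226). For both genes the groups overlapped, with vector 1 the lowest vector library and HMGB2 3 the lowest HMGB2 library. Without vector 1, Lrp6 passed at -0.33 (adjusted p = 0.0135), and without both libraries, a pair seen to stand apart in these same data, at -0.25 (0.000157). Ror1 and Ror2 are receptor tyrosine kinases for Wnt5a-type ligands. Ror1 was at 35.5, 45.3 and 48.9 CPM against 37.7, 29.9 and 28.2 CPM, and its log2 fold change of -0.44 (SE 0.14) missed the threshold narrowly (adjusted p = 0.0504). It passed without vector 1 (-0.56, 0.00371), without HMGB2 1 (-0.57, 0.0333), without vector 1 and HMGB2 3 together (0.000203), with DESeq2 (0.0208), with RLE scaling (0.0434) and with no filter on low counts (0.000649). Ror2 was at 17.7, 18.6 and 19.6 CPM against 16.2, 14.4 and 14.97 CPM, without overlap (-0.29, SE 0.10, adjusted p = 0.0553), and passed without vector 1 (0.0437), without vector 1 and HMGB2 3 together (0.0304) and with RLE scaling (0.0456). Ryk, an atypical receptor with an inactive kinase domain, was at 138, 121 and 114 CPM against 104, 105 and 110 CPM, without overlap (-0.23, SE 0.08, adjusted p = 0.0814), and passed without vector 1 and HMGB2 3 together (0.0105).

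Of the secreted modulators, 1 of 5 rose and 4 did not pass. Dkk3, a divergent member of the Dickkopf family that is not a typical Lrp5 and Lrp6 antagonist, had the smallest p of all members. It was at 42.1, 43.2 and 41.8 CPM in the vector libraries and at 112, 113 and 103.5 CPM in the HMGB2 libraries. The lowest HMGB2 library was well above the highest vector library. Dkk3 (ENSMUSG00000030772, GRCm38 chromosome 7, 112116017 to 112159057, minus strand) rose 2.58-fold (log2 1.37, SE 0.07, edgeR adjusted p = 2.4e-06), and its log2 fold change lay between 1.32 and 1.41 under all alternatives. Beside this rise stand the cardiomyocyte markers, whose median log2 fold change was 0.70. Any link between the Dkk3 rise and these markers was not tested. On the FPKM scale, Dkk3 went from 32.7 ± 0.973% to 57.2 ± 1.78% of the summed modulator transcripts, and Sfrp1 from 42.4 ± 0.96% to 25.7 ± 0.965%.

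The Frizzled-related proteins, which bind Wnts outside the cell, did not pass. Sfrp1 was at 67.9, 73.2 and 74.1 CPM against 68.0, 61.7 and 62.9 CPM (log2 fold change -0.16, SE 0.08, adjusted p = 0.156), so its lower share stands beside a larger Dkk3 term and no called fall. It passed without vector 1 and HMGB2 3 together (-0.18, adjusted p = 0.0236). Frzb was at 19.8, 18.6 and 21.5 CPM against 21.6, 19.5 and 22.4 CPM (0.09, SE 0.10). Sfrp2 (-0.15, SE 0.17) and the Lrp5 and Lrp6 antagonist Dkk2 (0.18, SE 0.26) overlapped between groups.

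Of the nuclear members, 2 fell and 2 did not pass. Lef1 and Tcf7 encode TCF/LEF factors, which carry beta-catenin on DNA, and both are also known to be induced by the pathway. Lef1 was the lowest member per length, at 1.52, 2.19 and 1.93 CPM against 1.08, 0.414 and 0.606 CPM. It fell by 1.40 in log2 units (SE 0.37, edgeR adjusted p = 0.0226), but not without vector 2 (0.0894), vector 3 (0.0663), HMGB2 2 (0.0846) or HMGB2 3 (0.0624). Tcf7 was at 5.05, 3.80 and 3.72 CPM against 2.40, 2.90 and 2.55 CPM, with vector 1 the highest. It fell by 0.68 (SE 0.20, edgeR adjusted p = 0.0369), and the call was lost whichever library was left out, with adjusted p values of 0.109, 0.0659 and 0.0546 without vector 1, 2 and 3 and of 0.129, 0.0675 and 0.0831 without HMGB2 1, 2 and 3. Axin2, a feedback inhibitor and the most used readout of beta-catenin activity, was at 2.57, 2.92 and 3.79 CPM against 2.10, 1.45 and 2.24 CPM. The groups did not overlap, but the log2 fold change of -0.67 (SE 0.25) did not pass (adjusted p = 0.0841), except without vector 1 and HMGB2 3 together (-0.90, 0.0188). Tcf7l2, the most abundant of the TCF/LEF members per length, was at 18.5, 18.2 and 20.4 CPM against 19.3, 20.2 and 17.5 CPM (-0.01, SE 0.10).

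Other genes of the pathway were read from 7 lists, in all 101 genes outside the members, of which 90 were tested, 5 rose and 12 fell (18.9% called, beside 25.2% of all genes). Of these genes, 2, 0 and 2 rose without vector 2, HMGB2 1 and HMGB2 2, and 6, 7 and 6 fell. Genes known as beta-catenin targets held the most falls: of 15 tested, 0 rose, 7 fell and 8 did not pass (46.7% called), with a median log2 fold change of -0.30. Cd44, a hyaluronan receptor that many other signals also control, was at 308, 304 and 300 CPM against 154, 159 and 155 CPM and fell by 0.96 (SE 0.06, edgeR adjusted p = 9.53e-06). Sp5, a transcription factor and direct target, was at 23.5, 17.9 and 19.5 CPM against 10.2, 9.45 and 15.4 CPM and fell by 0.79 (SE 0.19, edgeR adjusted p = 0.0132). Nkd1 and Nkd2, feedback inhibitors that bind Dishevelled, fell by 0.73 and 0.54 (edgeR adjusted p = 0.0148 and 0.0156). Leaving out vector 2 or HMGB2 2 left 2 falls, and leaving out HMGB2 1 left 3. Of the named ones, Sp5 lost its call without HMGB2 1 (0.0616) or HMGB2 2 (0.0545), Nkd1 without vector 2 (0.052) or HMGB2 2 (0.0531), and Nkd2 without vector 2 (0.0656) or HMGB2 2 (0.0552). The summed levels of the fibroblast, endothelial and macrophage lists were also lower with HMGB2, with few called members in the first and second of them, as given above. Their part in these falls was not tested.

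In the remaining lists the share called was near or below the 25.2% of all genes tested. It was 9.09% for the destruction complex and Dishevelled, 23.1% for nuclear partners and 12% for the polarity and calcium branches. Of 22 genes of the beta-catenin destruction complex and Dishevelled, 0 rose and 2 fell. These were Csnk1e, a casein kinase that phosphorylates Dishevelled (log2 fold change -0.37, 99.4 to 76.8 CPM), and Fbxw11, a ubiquitin ligase subunit for beta-catenin (-0.31, 147 to 118 CPM), with edgeR adjusted p = 0.0048 and 0.00655. Of 13 nuclear partners of beta-catenin, 1 rose and 2 fell. The corepressors Tle3 (-0.61, edgeR adjusted p = 0.000451) and Tle1 (-0.42, 0.00696) fell, and Pygo1, a coactivator subunit, rose by 1.43 from 1.83 to 5.01 CPM (0.0127), but not without HMGB2 1 (0.0572). Of 25 genes of the polarity and calcium branches, 3 rose and 0 fell: the calcium-dependent kinase Camk2g (log2 fold change 0.47), the polarity cadherin Celsr1 (0.85, with overlapping groups) and the calcium-controlled transcription factor Nfatc2 (0.61), with edgeR adjusted p = 0.0116, 0.0322 and 0.0424. Without HMGB2 1 or HMGB2 2 none of these 3 was called, with adjusted p values of 0.0544 and 0.0514 for Camk2g, 0.124 and 0.0793 for Celsr1, and 0.121 and 0.151 for Nfatc2. Celsr1 also lost its call without vector 1 (0.0789) or vector 2 (0.113), and Nfatc2 without vector 1 (0.0802), vector 2 (0.062) or vector 3 (0.0836).

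Genes of Wnt export, of receptor turnover and of other antagonists were mostly not called. The share called was 16.7% in each of these lists, beside 25.2% of all genes tested. Wls, the carrier that brings Wnts to the cell surface (means of 324.5 and 340 CPM, log2 fold change 0.07), and Adgra2, a co-receptor for Wnt7a in vessels (means of 248 and 211 CPM, -0.24), did not pass. Reck, the partner of Adgra2 in reading Wnt7a, fell by 0.42 (edgeR adjusted p = 0.0347). Its call was kept only without vector 1, and was lost without vector 2 (0.126), vector 3 (0.119), HMGB2 1 (0.146), HMGB2 2 (0.0593) or HMGB2 3 (0.0665). Of 6 tested genes of R-spondins and receptor turnover, Lgr6, an R-spondin receptor, rose by 0.89 from 3.63 to 6.74 CPM (edgeR adjusted p = 0.0203), but not without vector 2 (0.0831), HMGB2 1 (0.0692) or HMGB2 3 (0.0569), and Lgr4 (0.16) and Tspan12 (0.11) did not pass. Among 6 tested antagonists, Apcdd1, which is also a target, fell by 0.43 (edgeR adjusted p = 0.0379), but not without vector 1 (0.0615), vector 2 (0.126), HMGB2 1 (0.149) or HMGB2 2 (0.0996). Igfbp4 (-0.14) and Sost (-0.22) did not pass.

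**Figure D5:**
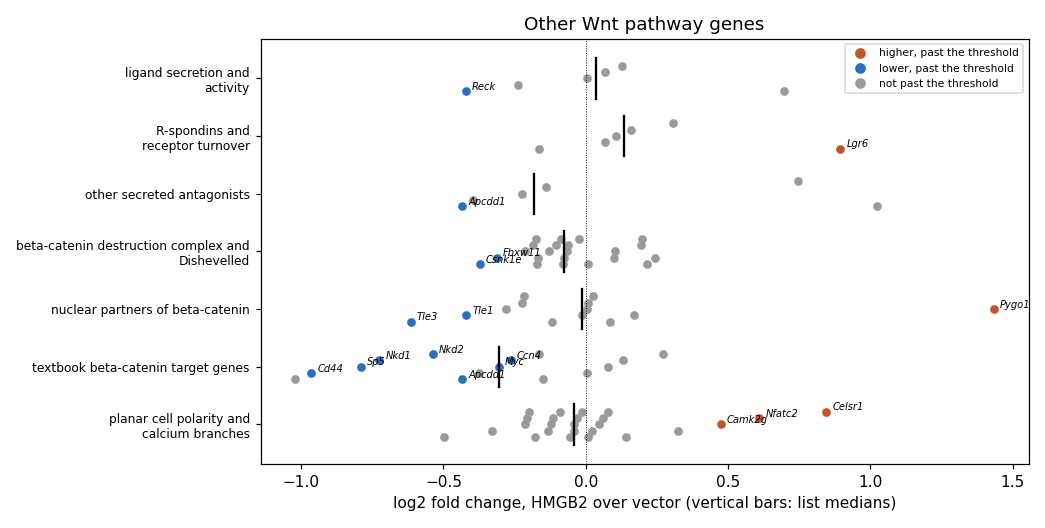
Log2 fold change of HMGB2 over vector for the tested genes of 7 other pathway lists (points), with list medians as vertical bars; coloured and named points passed the edgeR threshold. The target list is the one with most called genes on the lower side, 7 of 15, and its median is -0.30.

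Some counts could be shared with overlapping genes. The strand setting of the counting is not given in the sources used here. Exons of Axin2, Wnt11, Wnt5a, Fzd6, Lef1, Sfrp2 and Fzd5 overlap genes on the other strand in GENCODE M21. The largest total of such a partner was 119 counts, for the one at Fzd6, and 20 counts for the one at Wnt5a, while the others had 0 to 5 counts over all libraries. No single stretch aligned to another gene's transcript at 90% identity or more covered over 11.6% of a member's longest transcript. Only stretches of at least 200 bases were counted, the longest per gene pair, so separate stretches were not added up.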

How the data were processed

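The authors deposited whole-number counts per Ensembl gene for each of the 6 libraries, and FPKM values. The submitters' processing notes name mm10, StringTie 1.3.3b, HTSeq 0.6.1, HISAT2 2.2.1 and FastQC 0.10.1 without saying what each was used for. The deposited FPKM values carry the same counts, rescaled: the gene length they imply varied by at most 0.0199% between libraries over 2159 genes with at least 20 FPKM throughout. Columns were matched to samples by group abbreviation and replicate number. No library was left out.

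Counts were tested with edgeR 4.0.16 (R 4.3.3), using filterByExpr (minimum count 10, minimum total 15), TMM scaling and a robust quasi-likelihood model of group alone. Benjamini-Hochberg adjustment covered all 15429 genes, with 0.05 as the threshold. The code was tested on simulated data. The standard error was taken as the size of the log2 fold change divided by the root of the F statistic. CPM use TMM-scaled library sizes. An exact permutation of 3 against 3 libraries cannot go below p = 0.1, so none is given. The members and gene lists were chosen with earlier results of these data known, so counts over them are descriptions. Per-library values are given for members past the threshold and for the 10 highest by FPKM. Wnt4, Wnt5b, Ror2, Axin2, Frzb and Tcf7l2 were added after their values were seen. Of each list, up to 4 called genes with the smallest p are named, or up to 2 of the highest FPKM where fewer than 2 passed. Gene positions come from GENCODE M21 (GRCm38) by Ensembl identifier, since those in the tables differ from it. Alternatives were DESeq2 1.42.0, RLE factors, no filter and a minimum mean of 1 CPM, a fit without robust estimation, limma 3.58.1 on log2(FPKM + 1) and log2(FPKM + 0.1), a replicate block and left-out libraries.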

Additional observations from a re-analysis of the deposited data

How the results depend on the processing

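No called value changed sign under the alternatives run. Among the values of single members, 434 kept their side of the threshold, 55 lost it and 19 gained it. With 1 library left out, the members that rose numbered 3 to 5 and those that fell 1 to 10. The other pathway genes that rose numbered 0 to 5 and those that fell 6 to 15, and all genes that rose 1567 to 2526 and that fell 866 to 1960. Without vector 1 and HMGB2 3 together, 14 members fell, 11 other pathway genes rose and 23 fell, and 3265 of all genes rose and 2986 fell. On log2(FPKM + 1), 4 members fell. On log2(FPKM + 0.1), 3 other pathway genes rose. With no filter on low counts, 8 did. With DESeq2, 5 members rose and 7 fell, where Fzd2 (0.0541) and Tcf7 (0.056) lost their calls and Ror1 (0.0208) gained one.

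With a replicate block, 1 member fell and 4 rose, 3 other pathway genes rose and 7 fell, and 1459 of all genes rose and 754 fell. Libraries with the same number did not all deviate together (correlations of -0.397, 0.293 and -0.46 for numbers 1, 2 and 3, with 1 of 3 vector libraries closest to its own number). Deviations from a mean of 3 libraries are tied to each other, so these correlations cannot settle whether the numbers are pairs. The labels do not say that they are, and the main fit does not pair them. Ligands near 1 CPM, Lef1, Fzd9 and Fzd10 rest on few counts, which limits what can be detected for them.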

Other observations

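The 13 family rows under 60 counts were, with their counts over all 6 libraries, Sfrp4 (41), Wnt10b (25), Dkk1 (17), Wnt10a (13), Wnt3 (4), Wnt6 (4), Wnt7b (3), Wnt1 (2), Dkk4 (2), Sfrp5 (2), Wnt8a (1), Wnt8b (1) and Wnt3a (0). None of them entered the test. For Wnt3a, 0 of 87896789 counts allow a level of up to 0.0341 CPM (3 counts, counting error only). Dkk1, the classical Lrp5 and Lrp6 antagonist, had 4, 6 and 3 counts in vector 1, 2 and 3 and 3, 1 and 0 counts in HMGB2 1, 2 and 3. Wnt7b, the ligand most like Wnt7a, had 0 counts in every vector library and 1, 0 and 2 counts in the HMGB2 libraries. Wnt10a had 3, 2 and 6 counts with the vector and 0, 0 and 2 counts with HMGB2. These depths allow no statement on a difference.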
